A study of Homo sapiens with 32 samples.

Results

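RNA polymerase subunits, general transcription factors and Mediator were followed here through the decay of their own transcripts. RefSeq identifiers present in both decay rate tables were mapped to current gene symbols. Protein-coding transcripts were kept whose symbol begins with POLR1, POLR2, POLR3, GTF2 or GTF3, or with MED or TAF and a digit, together with TBP, BRF1, BRF2, BDP1, CCNC, CDK8 and CDK19. This gave 124 transcripts of 111 genes, of 12966 transcripts of 10623 genes with a symbol. They were 34 transcripts of polymerase subunits, 27 of TBP and its associated factors (TAFs), 28 of other general factors and 35 of Mediator. All 33 genes with a polymerase symbol had a value. BRF1, GTF2A1L, GTF2H2, GTF2IRD1, MED12L, MED18, TAF1C, TAF1L, TAF7L and the TAF11L genes had no transcript in both tables.

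Nuclear genes are read by the enzymes RNA polymerase I, which makes ribosomal RNA, II, which makes messenger RNA, and III, which makes transfer RNA and other short RNAs. The enzymes are built from catalytic subunits of their own and a small set of shared subunits. TBP and the TAFs, within TFIID, recognise core promoters, the other general factors load and open the DNA for the polymerase, and Mediator carries signals from bound activators to polymerase II. All cells need the core of this machinery, though not every member, and the rate at which a message is lost is one of the terms that set how much protein is made.

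The study compared MDA-LM2 cells, a derivative of the human breast cancer line MDA-MB-231 selected for metastasis to the lung, with the parental MDA-MB-231 line. Neither line received a treatment other than the label, and each is 1 population, so any difference is between these 2 lines. Both were labelled for 2 h with 4-thiouridine (4sU), a uridine analogue that is built into new RNA and lets it be pulled out, chased with unlabelled uridine, and sampled at 0, 2, 4 and 7 h in 4 libraries per line and time (32 libraries). The deposited tables hold 1 decay rate per transcript in each of 4 series per line, a higher rate meaning faster loss.

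Rates are given in the deposited unit. Its log base and scaling are not stated, so no half-life was derived, and the read depth is unknown. Each error is the SD of 4 series (n = 4), and values per series follow the order of the series' labels. Nothing says that the series were separate cultures, and a p-value then reflects only the spread among them, which may be technical. Over all transcripts the median rate was 0.159 ± 0.0115 in MDA-LM2 cells and 0.182 ± 0.0156 in MDA-MB-231. Of the member values, 1.61% in MDA-LM2 cells and 12.5% in MDA-MB-231 lay above 1 or below -1, against 4.24% of all MDA-LM2 values and 18.3% of all MDA-MB-231 values. The 96 of 124 member transcripts with all 8 rates within 1 of 0 are called in range below. Each series has a label of 2 numbers, and series with the same second number were more alike than the others: over members in range, their rank correlation was 0.911 to 0.925 in MDA-LM2 cells and 0.649 to 0.815 in MDA-MB-231, against 0.752 to 0.785 in MDA-LM2 and 0.273 to 0.410 in MDA-MB-231 for the remaining pairs.

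Counted by transcript, Mediator had the highest median rate of the 4 classes in both lines, and polymerase and general factor transcripts the lowest. With 1 median per gene, TBP and the TAFs stood highest, at 0.212 in MDA-LM2 cells and 0.255 in MDA-MB-231, against 0.204 in MDA-LM2 cells and 0.231 in MDA-MB-231 for Mediator. The class median was 0.206 ± 0.0260 in MDA-LM2 cells and 0.245 ± 0.0225 in MDA-MB-231 for Mediator, and 0.195 ± 0.0170 in MDA-LM2 cells and 0.218 ± 0.0319 in MDA-MB-231 for TBP and the TAFs. It was 0.154 ± 0.0176 in MDA-LM2 cells and 0.185 ± 0.0298 in MDA-MB-231 for the other general factors, and 0.152 ± 0.0131 in MDA-LM2 cells and 0.185 ± 0.0244 in MDA-MB-231 for polymerase subunits. Each class median was thus lower in MDA-LM2, as was the median of all transcripts. A lower mean rate in MDA-LM2 was found in 26 of 34 polymerase, 19 of 28 general factor, 15 of 27 TAF and 19 of 35 Mediator transcripts, 79 of 124 together (63.7%), against 66.2% of all transcripts. Among transcripts in range the direction of TAFs and Mediator turned. Mediator stood at 0.211 ± 0.0213 in MDA-LM2 cells and 0.191 ± 0.0295 in MDA-MB-231. TAFs stood at 0.192 ± 0.0231 in MDA-LM2 cells and 0.171 ± 0.0331 in MDA-MB-231. The range limit is set on the rates themselves. Most values beyond 1 were MDA-MB-231 values, 25 against 3 for Mediator and 19 against 4 for TAFs. Such a filter can by itself lower MDA-MB-231 medians, and its share here and in later medians in range was not tested. The medians of all transcripts in range were 0.146 ± 0.0117 (MDA-LM2) and 0.153 ± 0.0154 (MDA-MB-231). Polymerase subunits in range stayed lower in MDA-LM2 cells, at 0.129 ± 0.00694 there against 0.180 ± 0.0215 in MDA-MB-231, and so did the general factors, at 0.141 ± 0.0192 in MDA-LM2 against 0.178 ± 0.0372 in MDA-MB-231. These medians are descriptions, without a test.

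**Figure D1:**
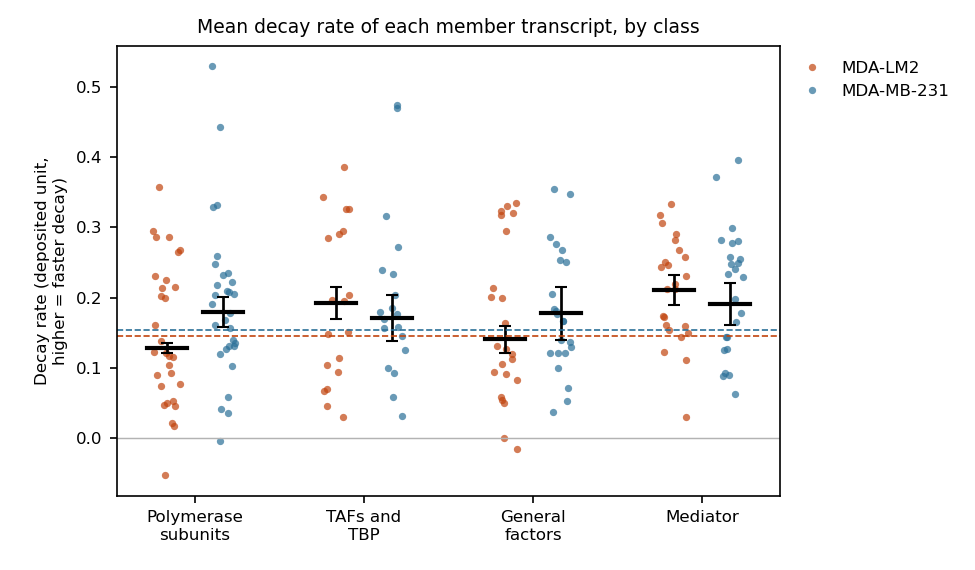
Mean decay rate of each member transcript in range (points, mean of 4 series, deposited unit), by class, with MDA-LM2 left of MDA-MB-231 in each pair. Black bars give the class median, averaged over the 4 series with its SD, and dashed lines the median of all transcripts in range. The polymerase median of 0.129 in MDA-LM2 lies below the MDA-MB-231 median of 0.180, while the Mediator medians of 0.211 and 0.191 have the other order.

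A limma fit on all 12966 transcripts called 8 of the 124 members slower in MDA-LM2 at a Benjamini-Hochberg adjusted p below 0.05, which is 6.45%, and 0 faster. Over all transcripts 6.04% were called slower and 1.9% faster, so that the share of members called slower was near the background. At an unadjusted p below 0.05, limma gave 31 of 124 members slower and 8 faster, against 2338 and 932 of all 12966 transcripts. The unequal-variance statistic of the authors' deposited table called 7 members slower and 0 faster after the same adjustment (4.49% and 1.07% of all transcripts). The 8 are POLR2H, POLR2K and POLR2L among the polymerases, BRF2, GTF2H5 and GTF3A among the general factors, and MED24 and MED26 in Mediator. The TAF class had none. In each of the 8, all 4 MDA-LM2 rates lay below all 4 MDA-MB-231 rates. A two-sided exact permutation test gives any such gap its smallest possible p of 0.0286, so that p adds nothing beyond the gap. Such a gap was seen in 30 members (24.2%; 16.6% of all transcripts), and in 9 (7.26%; 5.83% of all) the MDA-LM2 rates all lay above. With each series centred on its median, 9 members were called slower and 5 faster (MED1, MED13, POLR1A, POLR2D and POLR3E), against 4.8% and 3.41% of all transcripts. With a correlation between series that share a second number, limma called 6 members slower and 0 faster (2.97% and 0.285% of all). With these series averaged, 2 against 2, it called 0 members and 0% of all transcripts in either direction. At an unadjusted p below 0.05, that fit gave 12 members slower and 1 faster, against 1115 and 384 of all transcripts. Without any 1 of the MDA-LM2 series, 3.52% to 4.01% of all transcripts were called slower and 7 or 8 members.

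**Figure D2:**
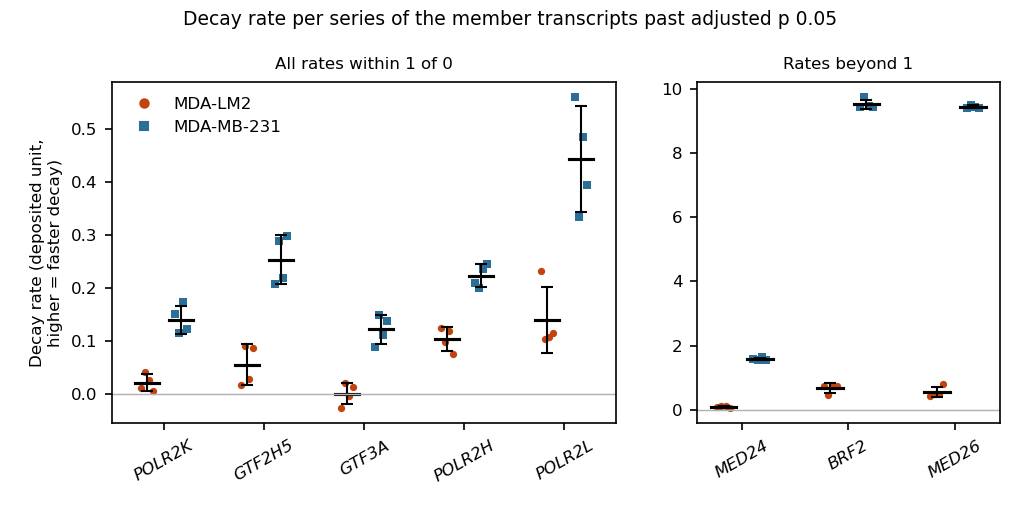
Decay rate (deposited unit) in each of the 4 series of MDA-LM2 (circles, left) and MDA-MB-231 (squares, right) for the 8 member transcripts past a limma adjusted p of 0.05, with mean and SD in black. The left panel holds the 5 in range and the right panel, on its own scale, those with rates beyond 1; in each gene every MDA-LM2 series lies below every MDA-MB-231 series.

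Adenosine- and uridine-rich elements in a 3′ untranslated region (UTR) are binding sites for proteins that speed or slow decay. Their best known core, TTATTTATT in DNA letters, was searched on the sense strand of the annotated 3′ UTR (GENCODE release 29, GRCh38) of the 118 member transcripts that matched by accession. It was found in 9 (7.63%), against 8.35% of 11325 matched transcripts; the shorter ATTTA, which lies within it, was found in 66.1%, against 71.0%. The 4 windows shown, of 30 bases, 5′ to 3′ with the core in capitals, are from the genes that held the most copies or that the results below turn on. They lie at chr2:127846249-127846278 (POLR2D), chr16:46735-46764 (POLR3K), chr17:61946009-61946038 (MED13) and chr15:59639038-59639067 (GTF2A2), all on the minus strand of GRCh38 and in the 3′ UTR.
POLR2D: attcttatttTTATTTATTTATTTATTttt
POLR3K: atTTATTTATTTATTTATTTTATTTATTta
MED13: atctcttctcTTATTTATTgtaagttttta
GTF2A2: aagagactttTTATTTATTctagaattgca
With overlapping copies counted, POLR3K held 8 in 1023 bases, POLR2D 3 in 4556, MED13 2 in 3863 and GTF2A2 1 in 1070. The 9 members with the core, all in range, had a median mean rate of 0.164 in MDA-LM2 cells and 0.162 in MDA-MB-231, and the 82 without it 0.167 in MDA-LM2 cells and 0.179 in MDA-MB-231. Over all transcripts in range, medians in MDA-LM2 cells were 0.170 for the 663 with the core and 0.142 for the 6876 without it, and in MDA-MB-231 they were 0.172 and 0.155. Members with at least 1 ATTTA (63) had 0.197 in MDA-LM2 cells and 0.223 in MDA-MB-231, and the 28 without it 0.127 in MDA-LM2 cells and 0.131 in MDA-MB-231. Over all transcripts in range, medians with and without ATTTA were 0.151 and 0.119 in MDA-LM2 cells, and 0.164 and 0.135 in MDA-MB-231. Members with the 9-base core thus had rates near those of members without it. Members with ATTTA had the higher medians, as did all transcripts with it, so this is not particular to the members. A match describes letters and is no evidence that a protein binds there.

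Transcripts of the 5 subunits that polymerases I, II and III share had MDA-LM2 means from 0.0211 to 0.139. All 5 means lay below the median of all transcripts in MDA-LM2, and 3 of the 5 were called slower there, against 6.04% of all transcripts. When a correlation between series with the same second number was allowed for, POLR2H and POLR2L missed the threshold (limma adjusted p = 0.0741 and 0.0859), and POLR2K kept it at 0.0461. Their median was 0.0617 ± 0.0143 in MDA-LM2 cells and 0.141 ± 0.0256 in MDA-MB-231. POLR2K (NM_005034), the smallest subunit, had 0.0108, 0.0414, 0.0265 and 0.00572 in the 4 MDA-LM2 series, against 0.150, 0.114, 0.173 and 0.122 in MDA-MB-231. All 4 MDA-LM2 rates were close to 0, and the difference was -0.119 (SE 0.0183), limma adjusted p = 0.0103. POLR2H (NM_006232), a subunit with a nucleic-acid-binding fold, had 0.123, 0.0981, 0.118 and 0.0748 in MDA-LM2, against 0.210, 0.199, 0.236 and 0.245 in MDA-MB-231. The lines were again apart in every series, by -0.119 (SE 0.0196), limma adjusted p = 0.0135. POLR2L (NM_021128), a small zinc-binding subunit of the assembly platform, had 0.231, 0.102, 0.107 and 0.115 in MDA-LM2, against 0.560, 0.333, 0.484 and 0.394 in MDA-MB-231. Its MDA-LM2 rates held 1 high series, still below the lowest MDA-MB-231 one, and the difference was -0.304 (SE 0.0572), limma adjusted p = 0.0225.

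The other shared subunits, POLR2E and POLR2F, did not pass. POLR2E, whose product lies at the jaw of the enzyme, had 0.0626, 0.0394, 0.0298 and 0.0601 in MDA-LM2, against 0.0677, 0.105, 0.110 and 0.128 in MDA-MB-231 cells (limma adjusted p = 0.111), with no overlap between the lines. POLR2F, whose product helps assemble the enzyme, had 0.0496 ± 0.0252 in MDA-LM2 cells and 0.0594 ± 0.0364 in MDA-MB-231 cells (limma adjusted p = 0.787), and its series overlapped. With correlated series in a fit of transcripts in range alone, 0% of transcripts passed in either direction. At an unadjusted p below 0.05, that fit gave 15 of 96 members slower and 5 faster, against 990 and 518 of all 8496 in range. POLR2H, POLR2K and POLR2L had limma adjusted p of 0.105 to 0.121 there. POLR2L also missed the threshold without any 1 of 3 MDA-LM2 series or the third MDA-MB-231 series (adjusted p 0.0577 to 0.0785), and POLR2H without the second MDA-LM2 series (0.0509). An exon of POLR2L overlaps CD151 on the other strand, and counting by strand is not stated.

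Among the subunits particular to polymerase II, none was called, and the median was 0.0835 ± 0.0253 in MDA-LM2 cells and 0.157 ± 0.0492 in MDA-MB-231. The group spanned slow and fast transcripts. POLR2A (NM_000937), the largest subunit, which carries the repeated C-terminal tail, had 0.218, 0.243, 0.221 and 0.220 in MDA-LM2, against 0.205, 0.232, 0.231 and 0.205 in MDA-MB-231. Its lines overlapped. POLR2B, the other catalytic subunit, had 0.0731, 0.106, 0.0806 and 0.0981 in MDA-LM2, against 0.104, 0.176, 0.149 and 0.198 in MDA-MB-231 cells (limma adjusted p = 0.128), so that the lowest MDA-MB-231 rate fell inside the MDA-LM2 range. POLR2G, part of the stalk that touches the emerging RNA, was the slowest member in range in MDA-LM2, with -0.0743, 0.0278, -0.0648 and -0.0999, against 0.0242, 0.107, -0.0252 and 0.0385 in MDA-MB-231. In 3 of 4 MDA-LM2 series its rate was below 0. POLR2D, its partner in the stalk, lay at the other end of the group, with 0.322, 0.279, 0.306 and 0.236 in MDA-LM2, against 0.150, 0.0960, 0.184 and 0.217 in MDA-MB-231. All 4 MDA-LM2 rates were the higher ones and the difference was 0.124 (SE 0.0333); it missed the threshold at a limma adjusted p of 0.0730 and passed it after centring.

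Of the remaining polymerase II transcripts, all but POLR2M had MDA-LM2 means below the median of all transcripts. POLR2C, which pairs with the POLR2J product in the assembly of the enzyme, had 0.0536 ± 0.0241 in MDA-LM2 cells and 0.132 ± 0.0420 in MDA-MB-231. POLR2I, a zinc-ribbon subunit, had 0.0171 ± 0.0178 in MDA-LM2 cells and 0.0410 ± 0.0369 in MDA-MB-231. POLR2J, POLR2J2 and POLR2J3 had 0.0770 ± 0.0599, 0.0744 ± 0.0324 and 0.0927 ± 0.0198 in MDA-LM2 cells and 0.179 ± 0.0756, 0.205 ± 0.0828 and 0.191 ± 0.0695 in MDA-MB-231. These 3 are near-identical copies whose reads the counting may have split, so they are not 3 independent measurements. POLR2M, which holds a polymerase-bound protein with an inhibitory role, had 0.175, 0.305, 0.213 and 0.131 in MDA-LM2, against the widely scattered 0.0982, -5.67, 0.0497 and 2.85 in MDA-MB-231.

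**Figure D3:**
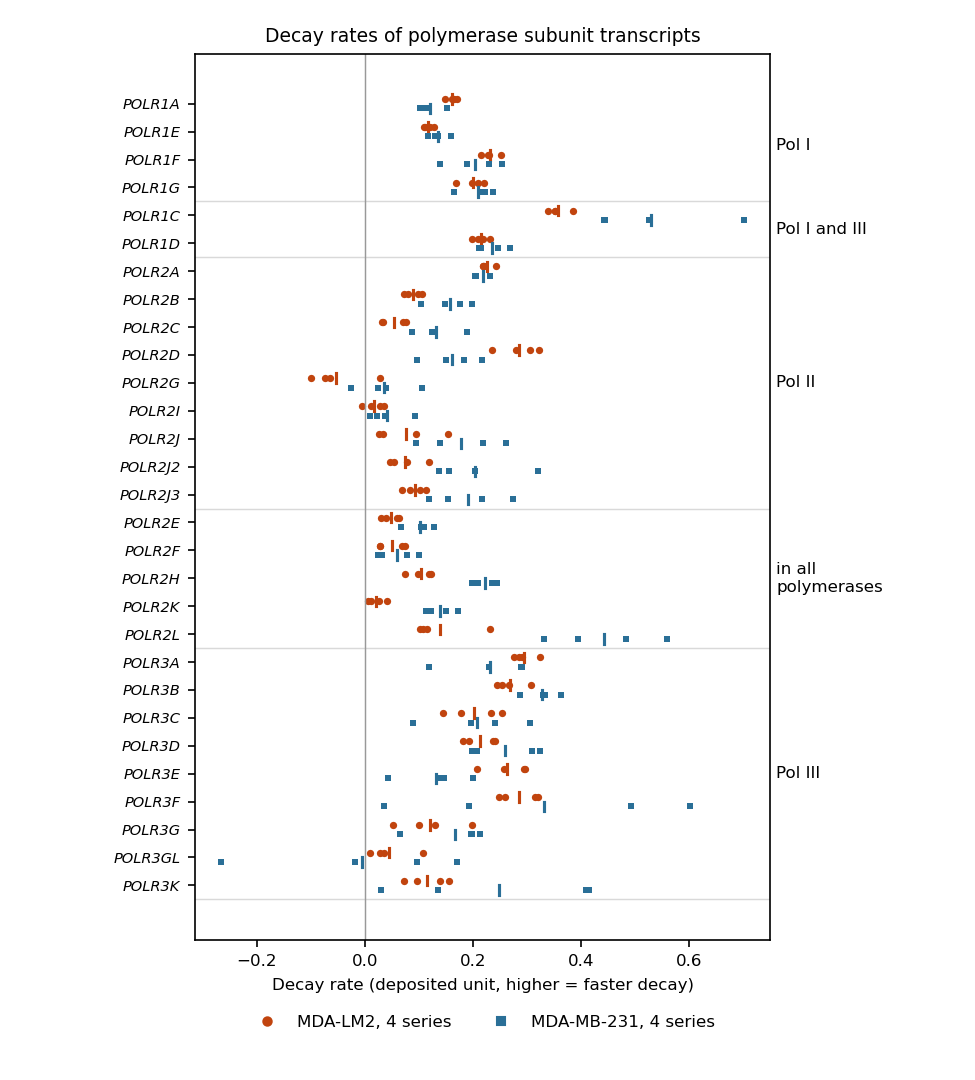
Decay rate (horizontal axis, deposited unit) of the polymerase transcripts in range that are named here, grouped by enzyme, in the 4 series of MDA-LM2 (circles, upper) and MDA-MB-231 (squares, lower), with a tick at each mean. The shared subunits POLR2E, POLR2H, POLR2K and POLR2L, like POLR1C, POLR2C, POLR2J2 and POLR2J3, have all MDA-LM2 points to the left of the MDA-MB-231 points. POLR2D and POLR3E have all MDA-LM2 points to the right.

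Polymerase III subunits had higher rates than the shared ones in MDA-LM2, with a median of 0.208 ± 0.0145 there and 0.188 ± 0.0235 in MDA-MB-231, and none of the 10 was called. Transcript by transcript the order was the other: 7 of the 10 had the lower mean in MDA-LM2, and the median difference was -0.0255. The catalytic subunits POLR3A and POLR3B had 0.295 ± 0.0212 and 0.268 ± 0.0276 in MDA-LM2 cells and 0.232 ± 0.0813 and 0.329 ± 0.0313 in MDA-MB-231. POLR3E, part of the subcomplex that acts in initiation and termination, had 0.258, 0.297, 0.208 and 0.295 in MDA-LM2, against 0.146, 0.0433, 0.200 and 0.135 in MDA-MB-231. Its MDA-LM2 rates were all higher, at a limma adjusted p of 0.0880. POLR3F, of the subcomplex that opens the promoter, was the fastest of the group in MDA-MB-231 on average, with 0.248, 0.321, 0.315 and 0.259 in MDA-LM2, against 0.493, 0.0361, 0.603 and 0.192 in MDA-MB-231. The 2 high and 2 low MDA-MB-231 values follow the second number of the series label. POLR3K, the RNA-cleaving subunit whose 3′ UTR holds 8 copies of TTATTTATT, had 0.138, 0.0718, 0.0972 and 0.156 in MDA-LM2, against 0.136, 0.416, 0.410 and 0.0305 in MDA-MB-231, which overlapped. Its mean lay below the median of all transcripts in MDA-LM2 and above it in MDA-MB-231.

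POLR3G and POLR3GL encode alternative versions of 1 subunit, POLR3G being the one typical of stem and proliferating cells. POLR3G had 0.121 ± 0.0614 in MDA-LM2 cells and 0.168 ± 0.0693 in MDA-MB-231, and POLR3GL 0.0455 ± 0.0427 in MDA-LM2 cells and -0.00438 ± 0.191 in MDA-MB-231. POLR3GL had the lower mean in both lines, but its MDA-MB-231 rates ran over -0.0180, -0.266, 0.171 and 0.0960. POLR3C and POLR3D had means of 0.203 ± 0.0499 and 0.213 ± 0.0302 in MDA-LM2 cells and 0.209 ± 0.0912 and 0.260 ± 0.0664 in MDA-MB-231, and each overlapped between the lines.

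Polymerase I transcripts in range were close together. The largest subunit, POLR1A, had 0.170, 0.161, 0.166 and 0.149 in MDA-LM2, against 0.103, 0.113, 0.152 and 0.112 in MDA-MB-231 cells (limma adjusted p = 0.177; past the threshold after centring). The second largest, POLR1B, had 0.184, 0.138, 0.202 and 0.167 in MDA-LM2, against 0.170, 2.34, 0.400 and 2.51 in MDA-MB-231. Both MDA-MB-231 rates above 2 belong to the series with the second number 2. POLR1E, POLR1F and POLR1G, of the mobile parts of the enzyme, had 0.118 ± 0.00891, 0.231 ± 0.0152 and 0.200 ± 0.0225 in MDA-LM2 cells and 0.136 ± 0.0174, 0.204 ± 0.0499 and 0.210 ± 0.0317 in MDA-MB-231. POLR1H, its cleavage subunit, had 0.256 ± 0.0619 in MDA-LM2 cells and 0.0971, 9.14, 0.496 and 9.48 in the 4 MDA-MB-231 series.

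POLR1C and POLR1D form the assembly platform of polymerases I and III. POLR1C had the highest mean of all polymerase transcripts in range, with 0.387, 0.352, 0.352 and 0.339 in MDA-LM2, against 0.703, 0.446, 0.442 and 0.527 in MDA-MB-231. The lines did not overlap, at a limma adjusted p of 0.142. POLR1D was measured through 2 transcripts that behaved unlike each other. NM_152705 had 0.215 ± 0.0136 in MDA-LM2 cells and 0.235 ± 0.0277 in MDA-MB-231, while NM_015972 had 0.193 ± 0.0462 in MDA-LM2 cells and 9.90, 0.348, 9.93 and 0.379 in MDA-MB-231.

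TBP, which bends DNA at the TATA box and serves all 3 polymerases, had 0.261, 0.285, 0.315 and 0.278 in MDA-LM2, against 0.0800, 0.233, 0.124 and 0.243 in MDA-MB-231. All MDA-LM2 rates were higher, at a limma adjusted p of 0.141. None of the TAF transcripts was called in either direction. At an unadjusted limma p below 0.05, 6 of the 27 were slower and 2 faster, against 2338 and 932 of all 12966 transcripts. TAF2 (NM_003184), which contacts the start site, came nearest, with 0.0436, 0.101, 0.0639 and 0.0732 in MDA-LM2, against 0.171, 0.125, 0.187 and 0.146 in MDA-MB-231. The lines did not overlap, and the limma adjusted p was 0.0502; it passed after centring and among transcripts in range. TAF12, a histone-fold subunit, had the largest difference among TAFs in range, -0.286 (SE 0.0803), with -0.0651, 0.0998, 0.0141 and 0.0703 in MDA-LM2, against 0.132, 0.495, 0.265 and 0.372 in MDA-MB-231 cells (limma adjusted p = 0.0816; past the threshold when transcripts in range were fitted alone). TAF5, whose repeats form part of the TFIID core, had 0.228, 0.146, 0.211 and 0.228 in MDA-LM2, against 0.449, 0.283, 0.517 and 0.632 in MDA-MB-231 cells (limma adjusted p = 0.0758). TAF3, TAF8, TAF10, TAF11 and TAF13, further TFIID subunits, had means from 0.0946 to 0.326 in MDA-LM2 cells and from 0.145 to 0.239 in MDA-MB-231.

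Averaged over both lines, the fastest TAF transcripts in range were TAF7 and TAF5 and the slowest TAF9B and TAF9. TAF7, which restrains the activity of TAF1 until initiation, had 0.344 ± 0.0793 in MDA-LM2 cells and 0.474 ± 0.134 in MDA-MB-231. TAF9 and its close relative TAF9B, histone-fold subunits of TFIID and of SAGA-type complexes, had 0.0674 ± 0.0134 and 0.0454 ± 0.0228 in MDA-LM2 cells and 0.0581 ± 0.00448 and 0.0926 ± 0.0555 in MDA-MB-231. TAF9 shares exons with AK6 on the same strand, so its reads may be split between both. TAF4 and TAF4B, alternative scaffolds of TFIID, had 0.291 ± 0.0411 and 0.114 ± 0.0876 in MDA-LM2 cells and 0.158 ± 0.145 and 0.180 ± 0.244 in MDA-MB-231. The MDA-MB-231 rates of TAF4 were 0.273, 0.0326, 0.295 and 0.0319, high in the 2 series with the second number 1 and low in the other 2, so they overlapped the MDA-LM2 range.

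TAF5L and TAF6L replace TAF5 and TAF6 in SAGA-type acetyltransferase complexes. TAF6L had 0.488, 0.370, 0.446 and 0.240 in MDA-LM2, against 0.286, 0.108, 0.0949 and 0.329 in MDA-MB-231 cells (limma adjusted p = 0.201). Its mean in MDA-LM2 was the highest of all member transcripts in range. TAF1A, TAF1B and TAF1D belong to SL1, the polymerase I factor built on TBP. TAF1D had 0.326 ± 0.00509 in MDA-LM2, the smallest SD of the members in range there, and 0.272 ± 0.0411 in MDA-MB-231, and TAF1B had 0.148 ± 0.0384 in MDA-LM2 cells and 0.126 ± 0.0468 in MDA-MB-231. TAF1A had 0.211 ± 0.0272 in MDA-LM2, against 0.347, 2.26, 0.284 and 2.29 in MDA-MB-231.

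Of the general factors of polymerase II outside TFIIH, none was called. Averaged over both lines, GTF2B, the bridge between TBP and the polymerase, and GTF2E1, of TFIIE, were the fastest in range, with 0.295 ± 0.0329 and 0.321 ± 0.105 in MDA-LM2 cells and 0.348 ± 0.0540 and 0.354 ± 0.0932 in MDA-MB-231. The TFIIA subunits differed from each other. GTF2A2 had 0.00980, 0.0881, 0.0136 and 0.0879 in MDA-LM2, against 0.137, 0.114, 0.155 and 0.143 in MDA-MB-231 cells (limma adjusted p = 0.0831). GTF2A1 had 0.0948 ± 0.0168 in MDA-LM2 cells and 0.0719 ± 0.0103 in MDA-MB-231, a higher mean in MDA-LM2. GTF2F1 and GTF2F2 of TFIIF likewise had means on opposite sides, 0.201 ± 0.0139 and 0.0922 ± 0.0121 in MDA-LM2 cells and 0.176 ± 0.0179 and 0.184 ± 0.0628 in MDA-MB-231. GTF2E2, the partner of GTF2E1, had 0.106 ± 0.0466 in MDA-LM2 cells and 0.140 ± 0.120 in MDA-MB-231, so that both TFIIE means were lower in MDA-LM2, but that of GTF2E2 was not without the first or the third MDA-MB-231 series. None of these differences passed.

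TFIIH opens promoter DNA and also serves DNA repair. GTF2H5 (NM_207118), its smallest subunit, which steadies the complex, was called slower, with 0.0158, 0.0898, 0.0277 and 0.0861 in MDA-LM2, against 0.208, 0.288, 0.219 and 0.299 in MDA-MB-231. The lines were apart in every series, by -0.198 (SE 0.0310), limma adjusted p = 0.0109 (0.0220 with correlated series; 0.0907 in range with correlated series). GTF2H3 had 0.0421, 0.0796, 0.0476 and 0.0661 in MDA-LM2, against 0.116, 0.143, 0.169 and 0.240 in MDA-MB-231, without overlap (limma adjusted p = 0.0693; past the threshold when transcripts in range were fitted alone). GTF2H4 and the GTF2H1 transcript NM_005316 had 0.335 ± 0.0811 and 0.132 ± 0.0347 in MDA-LM2 cells and 0.286 ± 0.112 and 0.167 ± 0.0479 in MDA-MB-231. GTF2H2C and GTF2H2C_2, copies of 1 gene whose reads cannot be told apart with certainty, had differences of opposite sign, -0.155 (SE 0.0549) and 0.0789 (SE 0.0498), neither called. Of the TFIIH genes with other symbols (ERCC2, ERCC3, CDK7, CCNH and MNAT1), CDK7, the kinase of the complex, was called slower, at 0.125 ± 0.00651 in MDA-LM2 cells and 0.281 ± 0.0557 in MDA-MB-231 cells (limma adjusted p = 0.0236), and 4 of the 5 had the lower mean in MDA-LM2.

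The polymerase III factors held the transcript with the lowest rate among those called. GTF3A (NM_002097), TFIIIA, the zinc finger protein that starts transcription of 5S ribosomal RNA, had -0.0266, 0.0193, -0.00354 and 0.0119 in MDA-LM2, against 0.0889, 0.148, 0.110 and 0.138 in MDA-MB-231. Its MDA-LM2 rates scattered around 0 and its MDA-MB-231 rates all lay above, with a difference of -0.121 (SE 0.0190) and a limma adjusted p of 0.0111 (0.0372 with correlated series; 0.101 in range with correlated series). An exon of GTF3A overlaps MTIF3 on the other strand. GTF3C6, of the DNA-binding factor TFIIIC, was about as slow, with -0.0161, -0.0138, -0.0337 and -2.16e-05 in MDA-LM2, against -0.0568, 0.0993, -0.00626 and 0.116 in MDA-MB-231, which overlapped. The 7 TFIIIC transcripts had a median of 0.110 ± 0.0423 in MDA-LM2 cells and 0.192 ± 0.0640 in MDA-MB-231, and none was called. BDP1, of TFIIIB, had 0.164 ± 0.0193 in MDA-LM2 cells and 0.130 ± 0.0230 in MDA-MB-231.

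GTF2I and its relatives GTF2IRD2 and GTF2IRD2B encode TFII-I proteins, which bind initiator elements and answer to signals rather than act at all promoters. They have near-identical copies, so their values are uncertain. GTF2IRD2B had the largest difference among general factors in range, with 0.245, 0.499, 0.204 and 0.324 in MDA-LM2, against 0.294, -0.351, 0.116 and 0.153 in MDA-MB-231. The MDA-MB-231 series overlapped the MDA-LM2 ones, with 1 below 0, and the limma adjusted p was 0.289.

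Mediator modules are described here by their median rates, with no test between them. The head, which touches the polymerase, had a median of 0.266 ± 0.0297 in MDA-LM2 cells and 0.371 ± 0.0943 in MDA-MB-231. The middle had 0.237 ± 0.0147 in MDA-LM2 cells and 0.251 ± 0.0384 in MDA-MB-231, the tail and backbone 0.175 ± 0.0471 in MDA-LM2 cells and 0.197 ± 0.0305 in MDA-MB-231, and the kinase module 0.158 ± 0.0201 in MDA-LM2 cells and 0.202 ± 0.0628 in MDA-MB-231. Head transcripts were thus the fastest in both lines. In range, the head stood at 0.275 ± 0.0260 in MDA-LM2 cells and 0.245 ± 0.0381 in MDA-MB-231, still the highest of the modules. MED17, the head's scaffold, was the fastest Mediator transcript in range, with 0.333, 0.310, 0.366 and 0.326 in MDA-LM2, against 0.214, 0.588, 0.278 and 0.501 in MDA-MB-231. The MDA-MB-231 values surrounded the MDA-LM2 ones. MED30, placed here with the tail and backbone, was next on average, with 0.250 ± 0.0689 in MDA-LM2 cells and 0.371 ± 0.0496 in MDA-MB-231.

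In the middle module, 2 transcripts with higher rates in MDA-LM2 came near the threshold. MED1, the subunit that nuclear receptors bind, had 0.142, 0.199, 0.163 and 0.188 in MDA-LM2, against 0.0805, 0.0728, 0.138 and 0.0631 in MDA-MB-231. MED10, of the middle module, had 0.264, 0.200, 0.289 and 0.233 in MDA-LM2, against -0.00456, 0.0909, -0.0208 and 0.188 in MDA-MB-231. All MDA-LM2 rates were higher in both genes, at limma adjusted p of 0.0769 and 0.0762; MED1 passed after centring and MED10 when transcripts in range were fitted alone. MED21, a small middle subunit, had 0.149 ± 0.0490 in MDA-LM2 cells and 0.248 ± 0.0260 in MDA-MB-231, in the opposite direction (limma adjusted p = 0.0955). MED14, the backbone that joins the modules, was the slowest Mediator transcript in range after averaging both lines, with 0.112 ± 0.0402 in MDA-LM2 cells and 0.0932 ± 0.0570 in MDA-MB-231.

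**Figure D4:**
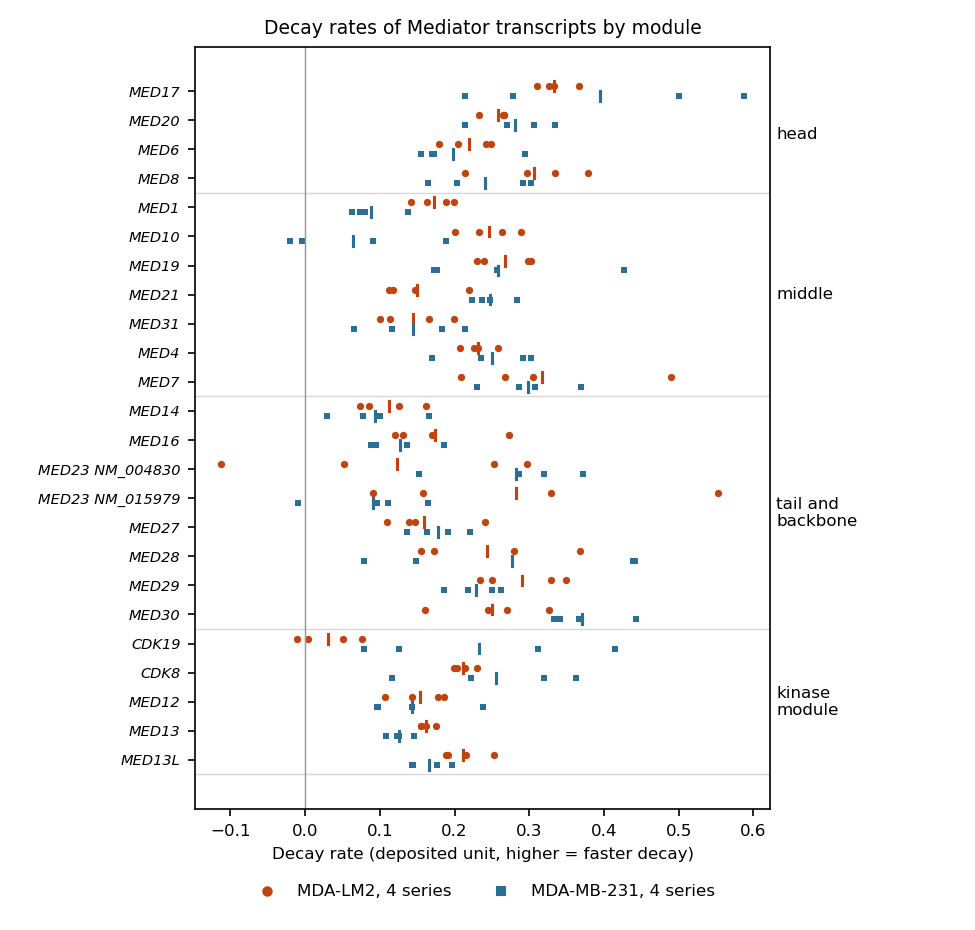
Decay rate (horizontal axis, deposited unit) of the 24 Mediator transcripts in range, by module, in the 4 series of MDA-LM2 (circles, upper) and MDA-MB-231 (squares, lower), with a tick at each mean. MED1, MED10 and MED13 have all MDA-LM2 points to the right, CDK19, MED21 and MED30 all to the left, and the others overlap.

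The kinase module, which docks on Mediator and regulates its contact with polymerase II, was uneven. CDK8 and CDK19 are alternative kinases of the module. CDK19 had 0.00406, 0.0762, -0.0105 and 0.0510 in MDA-LM2, against 0.415, 0.126, 0.312 and 0.0793 in MDA-MB-231, with no overlap, the largest difference of Mediator transcripts in range (limma adjusted p = 0.153). CDK8 had 0.204, 0.199, 0.230 and 0.214 in MDA-LM2, against 0.320, 0.116, 0.362 and 0.222 in MDA-MB-231, which overlapped. Their cyclin partner CCNC had 0.0249, 0.0365, 0.00936 and -0.00431 in MDA-LM2, against 2.98, 0.382, 3.06 and 0.486 in MDA-MB-231. The 2 MDA-MB-231 rates near 3 belong to the series with the second number 1 (limma adjusted p = 0.182; past the threshold with rates limited to the range -1 to 1). MED12, which activates the kinase, had 0.154 ± 0.0360 in MDA-LM2 cells and 0.143 ± 0.0665 in MDA-MB-231, and the paralogues MED13 and MED13L, which tether the module, 0.162 ± 0.00956 and 0.212 ± 0.0294 in MDA-LM2 cells and 0.126 ± 0.0154 and 0.165 ± 0.0258 in MDA-MB-231. In MED13 all MDA-LM2 rates were the higher ones, at a limma adjusted p of 0.199 and past the threshold after centring.

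The 3 called transcripts with the largest differences had MDA-MB-231 rates far outside the bulk. BRF2 (NM_018310), the TFIIIB subunit for promoters such as that of U6 RNA, had 0.741, 0.448, 0.754 and 0.750 in MDA-LM2, against 9.42, 9.73, 9.44 and 9.42 in MDA-MB-231 cells (limma adjusted p = 6.85e-05). MED26 (NM_004831), which links Mediator to elongation factors, had 0.427, 0.500, 0.501 and 0.795 in MDA-LM2, against 9.40, 9.50, 9.44 and 9.41 in MDA-MB-231 cells (limma adjusted p = 6.85e-05). Of all transcripts, 261 had all 4 MDA-MB-231 rates above 8, and the values above 8 had a median of 9.46, so that both genes lie within a narrow cluster shared with other transcripts. What gives these values was not tested. Exons of BRF2 overlap ADGRA2 on the other strand, and those of MED26 overlap 3 annotated loci.

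MED24, a tail subunit, was called through 1 of its 2 transcripts. NM_014815 had 0.0933, 0.109, 0.120 and 0.0659 in MDA-LM2, against 1.58, 1.56, 1.64 and 1.55 in MDA-MB-231, a difference of -1.48 (SE 0.0634), with limma adjusted p = 6.85e-05. The other, NM_001079518, had 0.248, 0.0603, 0.142 and 0.0554 in MDA-LM2, against -0.349, -2.01, -0.503 and -0.467 in MDA-MB-231, with all MDA-MB-231 rates below 0. The 2 transcripts thus stood on opposite sides of 0 in MDA-MB-231 and close together in MDA-LM2. Taken as the median over both, MED24 was not called (limma adjusted p = 0.384).

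Transcripts of 1 gene often had unlike rates. In 10 of the 13 genes with 2 transcripts the means of the transcripts lay more than 1 apart in MDA-MB-231, and in 1, TAF1, in MDA-LM2. In 7 of the 13 (MED8, MED23, MED24, TAF1, TAF5L, TAF9 and TAF15) the transcripts differed between the lines in opposite directions. TAF1 encodes the largest TFIID subunit; NM_004606 had -0.0705, 0.188, -0.0173 and 0.153 in MDA-LM2, against 1.82, 2.42, 1.95 and 0.141 in MDA-MB-231, while NM_138923 had 2.46, -0.298, 2.26 and 1.78 in MDA-LM2, against -0.0264, 0.0293, -0.298 and 1.63 in MDA-MB-231. In most series the high rates thus lay in different transcripts in the lines. The fourth MDA-MB-231 series had its high rate in NM_138923, as in MDA-LM2, and the second MDA-LM2 series was high in neither. For TAF9, NM_001015892 had 0.113, 0.363, 0.206 and 0.257 in MDA-LM2, against 9.32, 0.0292, 9.44 and 9.43 in MDA-MB-231. Only MED23 and GTF3C3 had both transcripts in range. Of the 13 genes, GTF2H1, GTF2I, GTF3C3, MED22, POLR1D and TAF6 had both differences on the same side.

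The other transcripts with the most rates beyond 1 were MED11, MED22, TAF6 and TAF15. MED11, a head subunit, had 0.264, 0.365, 9.36 and 0.502 in MDA-LM2, against 1.15, 9.62, 9.28 and 9.24 in MDA-MB-231. MED22, its partner, had 0.0419, 0.554, -0.0203 and -1.75 in MDA-LM2 cells and 9.50, 7.07, 9.40 and -0.0891 in MDA-MB-231 for NM_133640. TAF6 NM_139315 had 0.506, 0.226, 0.198 and 0.117 in MDA-LM2, against 9.25, 1.98, 1.20 and 1.17 in MDA-MB-231. TAF15, an RNA-binding protein found with part of the TFIID pool, had 0.162, 0.254, 0.227 and 3.05 in MDA-LM2, against 0.326, 2.80, 2.63 and 3.18 in MDA-MB-231 for NM_003487. None of these transcripts passed the test. As the median over both transcripts, MED22 was called slower (limma adjusted p = 0.00400), and TAF6 NM_139315 passed with rates limited to the range -1 to 1 and without the first MDA-MB-231 series. Single or paired series beyond 1 were also found in GTF3C2, MED8, MED9, MED15, MED25 and TAF5L. Among the 24 Mediator transcripts in range, means ran from 0.0302 to 0.334 in MDA-LM2 cells and from 0.0635 to 0.395 in MDA-MB-231; the 23 general factor transcripts ran from -0.0159 to 0.335 in MDA-LM2 cells and from 0.0380 to 0.354 in MDA-MB-231. The share of transcripts out of range was 11.8% of polymerase, 17.9% of general factor, 29.6% of TAF and 31.4% of Mediator transcripts, against 34.5% of all.

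Rates in the lines went together across members in range, with a Spearman correlation of the 2 means of 0.480 over 96 transcripts, against 0.576 over 7866 protein-coding transcripts in range. It was 0.663 over 30 polymerase transcripts, 0.495 over 19 TAF, 0.383 over 23 general factor and 0.373 over 24 Mediator transcripts. These points share their libraries, so the values are descriptions. Short coding sequences went with a lower rate in MDA-LM2 relative to MDA-MB-231: the Spearman correlation of coding length with the difference was 0.361 over 91 members in range, and 0.172 over 7539 transcripts. The shared polymerase subunits, with a median coding length of 384 bases, were among the shortest. The 6 largest polymerase subunits had a median length of 3525 over the 5 with a sequence match. Their median rate was 0.202 ± 0.00726 in MDA-LM2 cells and 0.220 ± 0.0325 in MDA-MB-231. In range, without POLR1B, it had the other order, at 0.226 ± 0.0119 in MDA-LM2 cells and 0.216 ± 0.0169 in MDA-MB-231.

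Lists of neighbouring steps of transcription gave 95 transcripts of 81 genes, of which 4 (4.21%) were called slower in MDA-LM2 cells and 0 faster, against 6.04% and 1.9% of all transcripts. Beside CDK7 these were ELOC, AFF1 and GPN1. ELOC, a subunit of elongin, had 0.0290 ± 0.0217 in MDA-LM2 cells and 0.233 ± 0.0938 in MDA-MB-231 cells (limma adjusted p = 0.0435). AFF1, a scaffold of the super elongation complex, had 0.340 ± 0.0437 in MDA-LM2 cells and 2.07 ± 0.440 in MDA-MB-231. GPN1, a GTPase that helps bring polymerase II into the nucleus, had 0.186 ± 0.210 in MDA-LM2 cells and 9.68 ± 0.109 in MDA-MB-231, and both genes were out of range. The 5 other TFIIH genes had a median of 0.140 ± 0.0173 in MDA-LM2 cells and 0.223 ± 0.0260 in MDA-MB-231. Pausing and elongation factors had a median of 0.156 ± 0.00692 in MDA-LM2 cells and 0.175 ± 0.0303 in MDA-MB-231 (41 transcripts), and Integrator, which cleaves nascent RNA, 0.153 ± 0.0226 in MDA-LM2 cells and 0.170 ± 0.0357 in MDA-MB-231 (15). TBP relatives and regulators had 0.118 ± 0.0115 in MDA-LM2 cells and 0.174 ± 0.0314 in MDA-MB-231 (4), the snRNA activating complex 0.138 ± 0.0134 in MDA-LM2 cells and 0.148 ± 0.0321 in MDA-MB-231 (4), and polymerase I factors 0.240 ± 0.0427 in MDA-LM2 cells and 0.238 ± 0.0417 in MDA-MB-231 (5). Polymerase phosphatases and assembly factors had 0.181 ± 0.0600 in MDA-LM2 cells and 0.201 ± 0.0202 in MDA-MB-231 (14). Mitochondrial transcription factors had 0.216 ± 0.0324 in MDA-LM2 cells and 0.189 ± 0.0317 in MDA-MB-231 (7). The median of all transcripts itself differed by -0.0231, more than the medians of the pausing, Integrator, snRNA and phosphatase lists did. In range, pausing and elongation factors stood at 0.171 ± 0.00911 in MDA-LM2 cells and 0.155 ± 0.0279 in MDA-MB-231, in the other order.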

How the data were processed

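The authors deposited, per the file headers, a decay rate score per transcript and series and a differential score per transcript; TopHat, Cufflinks and hg18 are named in the submitters' processing notes without versions or roles. The differential score in the authors' deposited table equalled, within 0.001 for all 12966 transcripts, the signed 1 minus p of an unequal-variance comparison. Libraries were made with ScriptSeq V2, per the labels. Depth is unknown, so no counting interval is given.

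Gene symbols were assigned to 12644 transcripts through a RefSeq gene table and to 118 through GENCODE release 29; 204 had none. The 4 MDA-LM2 and 4 MDA-MB-231 rates of every transcript in both tables were compared with limma 3.58.1 (R 4.3.3, variance trend, two-sided, Benjamini-Hochberg over all transcripts). The fit was tried on simulated data with independent noise in every series. That setting leaves out the correlation between series that share a second number, which limma estimated at 0.46. 3′ UTRs were read from GENCODE on GRCh38. pandas 2.3.3 and matplotlib 3.10.9 were used. No column was left out. The values of 1 member are not reported here, though counts and medians include it.

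The members, lists and tests were chosen with earlier results of these data known. Named were called members, the slowest and fastest 2 and the largest difference per class, paralogues, shared and catalytic subunits, and members far out of range; others, such as POLR2C, POLR2D, POLR2G, POLR3E, MED10, MED21, TAF2, GTF2A2 and GTF2H3, were named after their values were seen. The alternatives were 8 other settings, 8 that leave out 1 series, and 2 added after seeing the data (correlated series in range; averaged series).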

Additional observations from a re-analysis of the deposited data

Results flagged for a closer look

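In 13 of 118 groups of 4 series (59 named transcripts in both lines), 1 series stood apart from the other 3 by Dixon's criterion; chance gives about 1 in 20. In MDA-LM2 these were BRF2 at 0.448 (others 0.741 to 0.754), POLR2L at 0.231 (others 0.102 to 0.115), POLR2A at 0.243 (others 0.218 to 0.221), MED11 at 9.36 (others 0.264 to 0.502) and TAF15 NM_003487 at 3.05 (others 0.162 to 0.254). In MDA-MB-231 they were BRF2 at 9.73 (others 9.42 to 9.44), POLR3G at 0.0644 (others 0.196 to 0.213), MED11 at 1.15 (others 9.24 to 9.62) and TAF9 NM_001015892 at 0.0292 (others 9.32 to 9.44). The remaining 4, also in MDA-MB-231, were TAF6 NM_001190415 at 2.02 (others 0.0604 to 0.206), TAF6 NM_139315 at 9.25 (others 1.17 to 1.98), TAF1 NM_138923 at 1.63 (others -0.298 to 0.0293) and GTF2I NM_033000 at 10.0 (others 0.0910 to 0.184). Without the second MDA-MB-231 series, TAF9 NM_001015892 differed by -9.16 and passed (limma adjusted p = 0.00059). Without the first, TAF6 NM_139315 differed by -1.19 and passed (limma adjusted p = 0.0358). BRF2 passed without any 1 series.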

How the results depend on the processing

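The 8 members called slower in MDA-LM2 became 0 with series of the same second number averaged (0 of all transcripts either way). In range with correlated series, where 5 of the 8 had a value, 0 members were called (0 of all either way). At an unadjusted limma p below 0.05, that fit gave 15 members slower and 5 faster, against 990 and 518 of 8496 transcripts. Leaving out 1 series gave 7 to 11 members slower, against 3.52% to 8.34% of all transcripts. Members called faster were 5 after centring (against 3.41% of all transcripts) and 1 in range (MED10, against 3.4% of the 8496 in range). They were 1 with rates limited to -1 to 1 (MED24 NM_001079518, against 2% of all) and 0 to 1 without 1 series (against 0.702% to 2.71% of all). Over all transcripts, 783 slower and 246 faster became 385 and 37 with correlated series, 442 faster after centring, 139 faster by the authors' deposited score, and 457 to 1082 slower and 91 to 352 faster without 1 series. Correlated series took POLR2H and POLR2L from the 8, the deposited score POLR2L, the gene median MED24; centring, no variance trend and limited rates took none. The gene median added MED22 and TAF2 to the members called slower, and limited rates added CCNC, TAF2 and TAF6 NM_139315.

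Some differences that were not called turned in sign, and none was called on either side. Centring turned 10 of the 124, among them POLR2F at 0.0133 and POLR1D NM_152705 at 0.00231. The gene median gave TAF9 -3.405, TAF5L -1.44 and TAF1 -0.153, each against the sign of 1 of its transcripts, and limited rates gave GTF2I NM_001518 0.190. Without 1 series the difference ran from -0.0374 to 0.108 in POLR3GL, -0.144 to 0.0453 in POLR3F, -0.0212 to 0.00408 in POLR2F, -0.00306 to 0.0427 in MED14, -0.122 to 0.00267 in MED17, -0.00576 to 0.0416 in MED12, -0.154 to 0.0278 in TAF4B and -3.64 to 0.113 in GTF2I NM_001518.

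Same-numbered series of the lines did not deviate together (r -0.0124 to 0.0202), so the rates showed no pairing by number between the lines. Whether such series shared handling was not tested, and within a line the second number did group the series. With the replicate number as a block, 310 transcripts were slower (2.39%), 31 faster (0.239%), and 6 of the 8 members passed (not POLR2H and POLR2K).

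Class medians in MDA-LM2 and MDA-MB-231 became, after centring, -0.00713 and 0.00276 (polymerase), 0.0360 and 0.0362 (TAF), -0.00493 and 0.00279 (general factors), 0.0469 and 0.0629 (Mediator). Limited means were 0.228 for polymerase in MDA-MB-231, 0.222 and 0.333 for TAF, 0.180 and 0.235 for general factors, and 0.217 and 0.331 for Mediator. In range, polymerase gave 0.129 in MDA-LM2, and TAF 0.171 and Mediator 0.191 in MDA-MB-231; by gene, TAF gave 0.212 and 0.255 and Mediator 0.204 and 0.231. TAF thus stood above Mediator by gene and by limited means. Without 1 series they were 0.146 to 0.156 and 0.181 to 0.197 (polymerase), 0.187 to 0.200 and 0.210 to 0.234 (TAF), 0.146 to 0.159 and 0.171 to 0.194 (general factors), and 0.193 to 0.211 and 0.237 to 0.254 (Mediator). The cause of these shifts was not tested. Depth is unknown and may limit rates of scarce transcripts.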
